A study of Mus musculus with 14 samples.

Results

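Transcripts of 9 genes of the Nodal pathway were followed in mouse embryonic stem cells (ESCs) with and without Trincr1, a long noncoding RNA that the gene table lists as Gm2694. The genes were taken by symbol from the table of expression values. The set holds the ligands Nodal and Gdf3, the co-receptor Tdgf1, the receptor Acvr2b and the secreted antagonists Lefty1 and Lefty2. It also holds the nuclear partner Foxh1 and the intracellular inhibitors Smad7 and Skil. These 9 genes were chosen with earlier results of these data known. They are 9 of the 41204 genes in the table, and all 9 were among the 15430 genes with a mean above 0.2 FPKM (fragment counts normalized to the length of the transcript and the depth of the sample) over the 8 RNA-seq samples. RNA of wild-type and Trincr1-/- ESCs, labelled WT and Trincr1-ko, came from the media 2i + LIF and PD + LIF, with 2 samples in each of the 4 groups. All cells were of the cross C57BL/6(F) x 129/sv(M) at a developmental stage of 3.5 days. The 2i + LIF medium (label 2iL) was N2B27 with the MEK inhibitor PD0325901 at 1.0 μM, the GSK3 inhibitor CHIR99021 at 3.0 μM and 1000 units per ml of leukemia inhibitory factor (LIF). Cells for PD + LIF (label PDL) spent 24 h in 2i + LIF before 4 days in N2B27 with only PD0325901 and LIF, so MEK was inhibited in all 4 groups and the GSK3 inhibitor was absent from the PD + LIF groups. The knockout was made with a pair of guide RNAs, and the labels do not say whether the 2 Trincr1-/- samples of a group are 1 clone or separate cultures, so p-values measure only the spread between these samples, which may be technical. A second experiment gave 1 value per transcript for RNA pulled down with FLAG-tagged TRIM71, an RNA-binding protein, and 1 for its input, from UV-crosslinked ESCs in 2i + LIF. The IP came from ESCs that overexpressed the tagged protein, and the labels do not say whether the input came from these or from the ESCs labelled empty.

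Nodal is a secreted ligand of the TGF-beta family that signals through activin receptors, with Tdgf1 (Cripto) as its co-receptor on the cell surface. The activated receptors phosphorylate Smad2 and Smad3, which enter the nucleus with Smad4 and bind DNA together with Foxh1. Nodal, Lefty1, Lefty2, Smad7 and Skil are known direct targets of this cascade, and both Lefty proteins, Smad7 and Skil act back on it as inhibitors. In ESCs and the early epiblast the pathway is known for its part in keeping cells pluripotent and in preparing them to form mesoderm and endoderm.

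The label of each RNA-seq group was checked against Gm2694, which was listed at 5.70 and 9.45 FPKM in wild-type ESCs in 2i + LIF and at 6.18 and 6.56 in PD + LIF, against 0.0754 and 0 in Trincr1-/- ESCs in 2i + LIF and 1.38 and 0.746 in PD + LIF. The spacing of the lowest FPKM values, with no correction for effective length, put the samples at 8.12 to 11.1 M fragments, which puts 97.0 to 3618 fragments behind a value of the 9 genes. Of the pluripotency markers Pou5f1, Sox2, Nanog, Zfp42 and Esrrb, all 5 were measured in all groups, with summed levels of 1597 to 1626 FPKM over both 2i + LIF groups, 1063 to 1098 in wild-type and 863 to 903 in Trincr1-/- ESCs in PD + LIF. The summed levels of the formative epiblast markers Fgf5, Otx2, Pou3f1 and Dnmt3b were 42.9 to 47.8 FPKM over the 2i + LIF groups, 110 to 128 in wild-type and 178 to 196 in Trincr1-/- ESCs in PD + LIF. Single genes did not all follow these sums. In wild-type ESCs Sox2 rose from a mean of 146 FPKM in 2i + LIF to 179 in PD + LIF (adjusted p = 0.00696 in limma). Between genotypes in PD + LIF, Zfp42 did not pass among the pluripotency markers. Of the formative markers only Dnmt3b passed there, with means of 129 FPKM in Trincr1-/- and 72.4 in wild-type ESCs. Markers of primitive endoderm (6 genes, of which Gata6, Sox17 and Sox7 were under the 0.2 FPKM filter) summed to 1.04 to 1.44 FPKM over the 2i + LIF groups, 4.31 to 5.05 in wild-type and 5.58 to 5.89 in Trincr1-/- ESCs in PD + LIF. Markers of fibroblasts (7 genes, of which Col3a1, Postn, Lum and Dcn were under it) summed to 0.556 to 1.35 FPKM over the 2i + LIF groups, 4.14 to 4.59 in wild-type and 5.56 to 6.40 in Trincr1-/- ESCs in PD + LIF. In PD + LIF, Col1a1 was the only tested gene of both lists to pass between genotypes, at 4.60 times its wild-type mean of 0.409 FPKM (adjusted p = 0.00370). All 4 marker sums thus moved with the medium, and their part in the results below was not tested. In RNA from whole cultures, fewer cells expressing a gene and less RNA per cell cannot be told apart.

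Lefty1 and Lefty2 lie 35918 bases apart on chromosome 1, and their reads can be told apart only where their sequences differ. Their coding sequences, taken from the GENCODE vM1 transcripts on NCBIM37, are each 1107 bases long and identical at 1017 of these bases (91.9%). The longest stretch of the coding sequence without a difference is 140 bases long, and a read from it cannot be assigned to either gene by sequence. Of all 50-base windows of the mRNAs, 17.9% of those of Lefty1 were found unchanged in Lefty2 and 11.6% of those of Lefty2 in Lefty1, and for 100-base windows the shares were 4.80% and 3.07%. The authors ran STAR and Cufflinks with default settings, under which a read that maps to several places is kept and divided evenly among them, so a part of each Lefty level may come from the other gene. Copies elsewhere in the genome, of at least 100 bases and 95% identity, also covered 51.7% of the Tdgf1 mRNA and 6.12% of the Gdf3 mRNA. The copy of Tdgf1 was a single stretch of 1009 bases on chromosome 16. No such copy was found for Nodal, Acvr2b, Foxh1, Smad7 or Skil.

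Tdgf1 had the highest level of the 9 genes in every group, and the order of the others changed with the medium. In wild-type ESCs in 2i + LIF the mean levels, per kilobase, ran from Tdgf1 (192 FPKM) through Gdf3 (69.6), Lefty2 (46.7), Foxh1 (42.9), Lefty1 (35.6), Nodal (23.0), Smad7 (12.1) and Acvr2b (6.13) to Skil (5.20). Lefty2 and Foxh1 were the only neighbours in that order whose samples overlapped. In wild-type ESCs in PD + LIF the order ran from Tdgf1 (132 FPKM) through Lefty1 (59.1), Gdf3 (37.9), Foxh1 (30.4), Lefty2 (27.7), Skil (21.4), Acvr2b (14.9) and Nodal (12.1) to Smad7 (6.98), and samples of Foxh1 and Lefty2 overlapped. Among Trincr1-/- ESCs, the overlapping neighbours were Nodal and Lefty1 in 2i + LIF, and Lefty1 and Gdf3, Skil and Acvr2b, and Smad7 and Nodal in PD + LIF. Skil thus stood last in both 2i + LIF groups and Smad7 or Nodal in the PD + LIF groups.

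**Figure D1:**
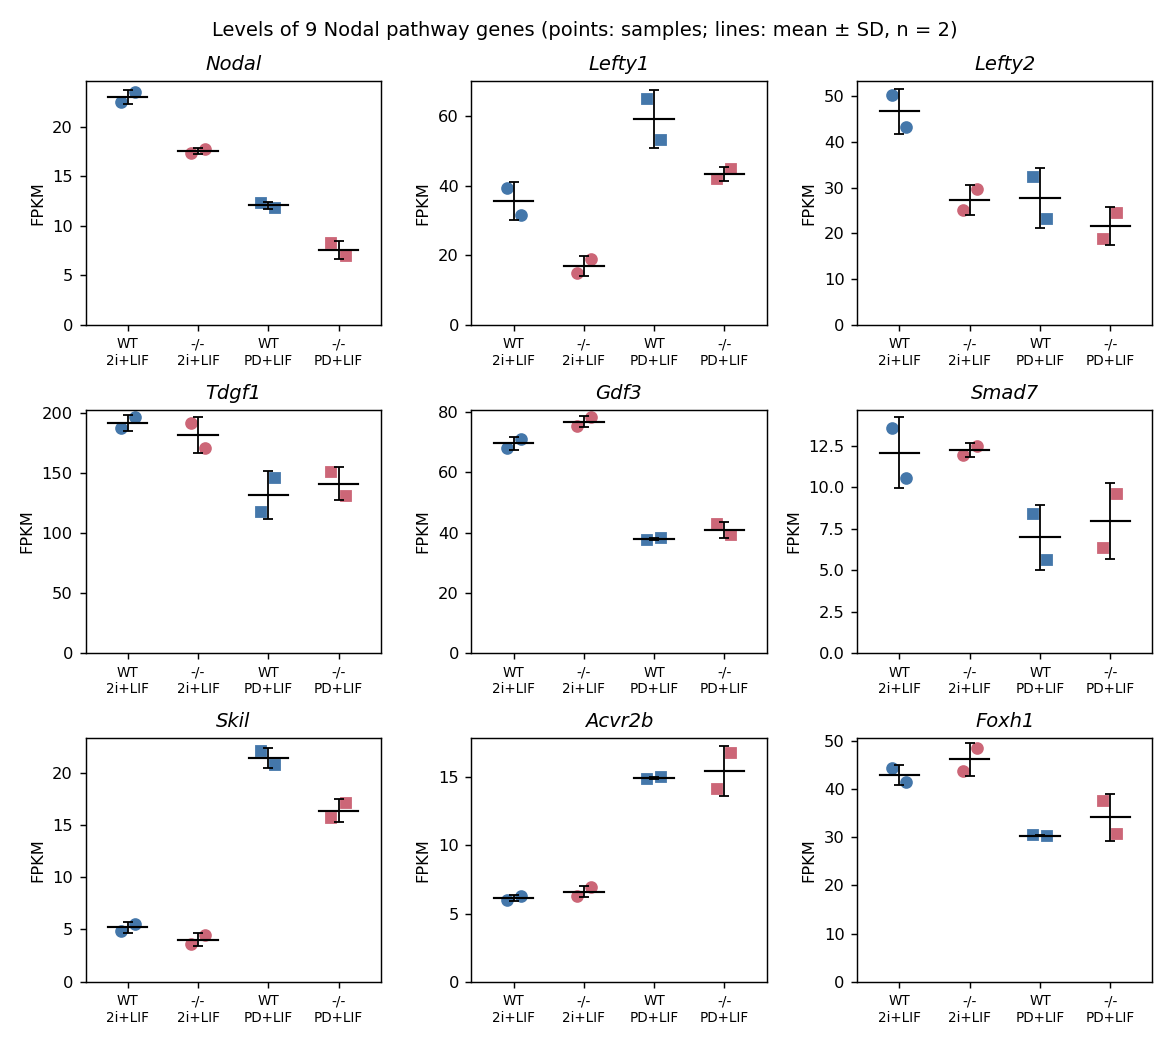
FPKM of each of the 9 genes (y axis, from 0) in the 4 groups (x axis), with a point for each sample and lines for the mean ± SD (n = 2), wild type in blue and Trincr1-/- in red. Nodal falls from 23.0 FPKM in wild-type ESCs in 2i + LIF to 7.57 in Trincr1-/- ESCs in PD + LIF, while Skil, Acvr2b and Lefty1 are higher in PD + LIF than in 2i + LIF.

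Nodal (ENSMUSG00000037171, chr10:61417972-61425338 on GRCm38) fell in Trincr1-/- ESCs in PD + LIF and fell with the change of medium in both genotypes. Its levels were 22.5 and 23.6 FPKM in wild-type and 17.3 and 17.7 in Trincr1-/- ESCs in 2i + LIF, and 12.3 and 11.8 in wild-type and 8.23 and 6.91 in Trincr1-/- ESCs in PD + LIF. The 4 groups did not overlap, and in each medium both Trincr1-/- samples were below both wild-type samples. In PD + LIF the mean fell by 37.3% in Trincr1-/- ESCs, from 12.1 ± 0.377 to 7.57 ± 0.936 FPKM (SD, n = 2 each), with a difference of log2(FPKM + 1) of -0.61 ± 0.09 (SE) and an adjusted p of 0.00812 in limma. Adjusted p-values here and below are Benjamini-Hochberg values of limma over all 15430 genes, with a threshold of 0.05, and differences on the log2(FPKM + 1) scale understate the change of genes with low FPKM. In 2i + LIF the mean was 17.5 ± 0.285 against 23.0 ± 0.754 FPKM, 0.762 times the wild-type level, and this did not pass (log2 difference -0.37 ± 0.09, adjusted p = 0.116). The call in PD + LIF was lost without the wild-type replicate 1 in PD + LIF (adjusted p = 0.0572) and in a fit of the PD + LIF groups alone (adjusted p = 0.0665). The summed markers given above also differed between the genotypes in PD + LIF, and their part in the result for Nodal was not tested. From 2i + LIF to PD + LIF, Nodal fell by 47.6% in wild-type ESCs (adjusted p = 0.000191) and fell by 56.8% in Trincr1-/- ESCs (adjusted p = 5.98e-05).

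Gdf3 (ENSMUSG00000030117, chr6:122605403-122610087), a ligand that uses the same co-receptor and can form dimers with Nodal, changed with the medium and not detectably with the genotype. It was listed at 68.1 and 71.0 FPKM in wild-type and 75.4 and 78.1 in Trincr1-/- ESCs in 2i + LIF, and at 37.6 and 38.2 in wild-type and 42.7 and 39.0 in Trincr1-/- ESCs in PD + LIF. In both media the Trincr1-/- samples lay above the wild-type samples, the opposite order to Nodal. The log2 differences between genotypes were 0.14 ± 0.06 in 2i + LIF (95% interval 0.0075 to 0.27, adjusted p = 0.315) and 0.11 ± 0.06 in PD + LIF (95% interval -0.026 to 0.24, adjusted p = 0.267). From 2i + LIF to PD + LIF it fell by 45.6% in wild-type and fell by 46.7% in Trincr1-/- ESCs (adjusted p = 3.17e-05 and 2.28e-05).

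Tdgf1 (ENSMUSG00000032494, chr9:110939610-110946158), which presents Nodal to its receptors, was listed in 2i + LIF at 187 and 197 FPKM in wild-type and 192 and 171 in Trincr1-/- ESCs, and in PD + LIF at 117 and 146 in wild-type and 151 and 131 in Trincr1-/- ESCs. The genotypes overlapped in both media, with log2 differences of -0.08 ± 0.11 in 2i + LIF (95% interval -0.35 to 0.18) and 0.11 ± 0.11 in PD + LIF (95% interval -0.16 to 0.37). Between media the samples did not overlap. In PD + LIF Tdgf1 fell by 31.5% in wild-type ESCs (adjusted p = 0.00528) and fell by 22.4% in Trincr1-/- ESCs (adjusted p = 0.0310), and the latter call was lost in 7 of 16 alternative analyses.

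Acvr2b (ENSMUSG00000061393, chr9:119402444-119433501), a type II activin receptor that binds Nodal and activins, rose in PD + LIF in both genotypes. Its levels in 2i + LIF were 5.96 and 6.29 FPKM in wild-type and 6.31 and 6.91 in Trincr1-/- ESCs, and in PD + LIF 14.9 and 15.0 in wild-type and 14.1 and 16.8 in Trincr1-/- ESCs. All PD + LIF samples were above all 2i + LIF samples. The ratio of means between media was 2.44 in wild-type ESCs (log2 difference 1.16 ± 0.10, adjusted p = 8.69e-05) and 2.34 in Trincr1-/- ESCs (1.11 ± 0.10, adjusted p = 0.000103). Between genotypes the log2 difference was 0.09 ± 0.10 in 2i + LIF (95% interval -0.13 to 0.32) and 0.04 ± 0.10 in PD + LIF (95% interval -0.19 to 0.27).

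Lefty1 (ENSMUSG00000038793, chr1:180935022-180938400), a secreted antagonist of Nodal, fell in Trincr1-/- ESCs in 2i + LIF and rose from 2i + LIF to PD + LIF in both genotypes. It was listed at 39.4 and 31.7 FPKM in wild-type and 14.9 and 19.0 in Trincr1-/- ESCs in 2i + LIF, and at 64.9 and 53.2 in wild-type and 42.0 and 44.8 in Trincr1-/- ESCs in PD + LIF. In each medium both Trincr1-/- samples were below both wild-type samples. In 2i + LIF the mean fell by 52.4%, from 35.6 ± 5.48 to 16.9 ± 2.89 FPKM (SD, n = 2 each), with a log2 difference of -1.03 ± 0.15 and an adjusted p of 0.0274. This call was lost in 12 of 16 alternative analyses, among them each fit without 1 of the 8 samples (log2 differences of -1.19 to -0.86), although the direction stayed the same in all 16. In PD + LIF the mean was 43.4 ± 2.00 against 59.1 ± 8.29 FPKM, 0.734 times the wild-type level, and did not pass (log2 difference -0.43 ± 0.15, adjusted p = 0.109). The rise with the medium was 1.66-fold in wild-type ESCs (adjusted p = 0.00552) and 2.56-fold in Trincr1-/- ESCs (adjusted p = 0.000335).

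Lefty2 (ENSMUSG00000066652, chr1:180893108-180899103), its neighbour and fellow antagonist, was listed at 50.1 and 43.2 FPKM in wild-type and 25.0 and 29.6 in Trincr1-/- ESCs in 2i + LIF, and at 32.3 and 23.1 in wild-type and 18.7 and 24.5 in Trincr1-/- ESCs in PD + LIF. The genotypes did not overlap in 2i + LIF and overlapped in PD + LIF. Neither difference between genotypes passed, with 0.586 times the wild-type mean in 2i + LIF (log2 difference -0.75 ± 0.18, adjusted p = 0.129) and 0.781 times in PD + LIF (-0.34 ± 0.18, adjusted p = 0.281). With the change of medium Lefty2 fell by 40.7% in wild-type ESCs (adjusted p = 0.0117), a call lost without the wild-type replicate 1 in 2i + LIF or the wild-type replicate 2 in PD + LIF. In Trincr1-/- ESCs its level in PD + LIF was 0.790 times that in 2i + LIF (adjusted p = 0.174).

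Foxh1 (ENSMUSG00000033837, chr15:76668284-76669948), the DNA-binding partner of the activated Smads, was listed at 44.4 and 41.4 FPKM in wild-type and 43.8 and 48.6 in Trincr1-/- ESCs in 2i + LIF, and at 30.4 and 30.3 in wild-type and 37.6 and 30.6 in Trincr1-/- ESCs in PD + LIF. The genotypes overlapped in 2i + LIF, and in PD + LIF they were separated only by the distance from 30.4 to 30.6 FPKM. The log2 differences between genotypes were 0.10 ± 0.10 in 2i + LIF (95% interval -0.13 to 0.34) and 0.16 ± 0.10 in PD + LIF (95% interval -0.078 to 0.39). In PD + LIF Foxh1 fell by 29.2% in wild-type ESCs (adjusted p = 0.00534) and fell by 26.1% in Trincr1-/- ESCs (adjusted p = 0.00927).

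Smad7 (ENSMUSG00000025880), an inhibitory Smad that blocks the receptors, had the largest standard error of the 9 genes (0.22 on the log2 scale). It was listed at 13.6 and 10.6 FPKM in wild-type and 11.9 and 12.5 in Trincr1-/- ESCs in 2i + LIF, and at 8.36 and 5.61 in wild-type and 6.33 and 9.60 in Trincr1-/- ESCs in PD + LIF. The genotypes overlapped in both media, with intervals of the log2 difference that ran from -0.50 to 0.55 in 2i + LIF and from -0.36 to 0.69 in PD + LIF. It fell by 42.2% in PD + LIF in wild-type ESCs (adjusted p = 0.0292), a call lost in 6 of 16 alternative analyses. In Trincr1-/- ESCs the PD + LIF samples were also below the 2i + LIF samples, at 0.652 times the mean, without passing (adjusted p = 0.0645).

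Skil (ENSMUSG00000027660, chr3:31095058-31122577), which encodes SnoN, a repressor that binds the Smad complex, had the largest change with the medium of the 9 genes in both genotypes. It was listed at 4.84 and 5.56 FPKM in wild-type and 3.59 and 4.44 in Trincr1-/- ESCs in 2i + LIF, and at 22.1 and 20.8 in wild-type and 15.6 and 17.1 in Trincr1-/- ESCs in PD + LIF. The rise was 4.12-fold in wild-type ESCs (log2 difference 1.86 ± 0.11, adjusted p = 2.26e-05) and 4.08-fold in Trincr1-/- ESCs (1.80 ± 0.11, adjusted p = 2.14e-05). In each medium both Trincr1-/- samples were below both wild-type samples, at 0.773 times the mean in 2i + LIF (adjusted p = 0.265) and 0.765 times in PD + LIF (adjusted p = 0.0761), and neither difference passed.

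For the genotype, then, 1 of 9 genes passed in each medium, Lefty1 in 2i + LIF and Nodal in PD + LIF, both lower in Trincr1-/- ESCs. Over all tested genes, 1.21% passed in 2i + LIF and 12.1% in PD + LIF, with 0.855% and 5.77% lower. The 9 genes were chosen with earlier results known, so their counts beside all tested genes are descriptive here and below. In a fit of only the 12063 genes with a mean above 1 FPKM, 227 passed in 2i + LIF and 1909 in PD + LIF. At an unadjusted p under 0.05, 5 of the 9 genes were counted in 2i + LIF and 3 in PD + LIF, against 14.6% and 28.5% of all tested genes. Nodal, Lefty1 and Skil were lower in Trincr1-/- ESCs without overlap in both media, which held for 8.70% of all tested genes, and Gdf3 was higher without overlap in both, which held for 8.68%. Within a single medium, groups of 2 samples were free of overlap in 44.4% of all tested genes in 2i + LIF and in 57.7% in PD + LIF, against 6 and 5 of the 9 genes. The median log2 difference of the 9 genes was -0.08 in 2i + LIF and 0.04 in PD + LIF, beside 0.0021 and 0.010 over all tested genes. No gene of the 9 passed the test of whether the genotype difference itself differed between the media, which 1.81% of all genes passed. Lefty1 came nearest, with a difference of log2 differences of 0.60 ± 0.21 (unadjusted p = 0.0242, adjusted p = 0.189), and was the 1 gene of the 9 with an unadjusted p under 0.05, which 19.0% of all tested genes had. That Lefty1 passed in 2i + LIF alone and Nodal in PD + LIF alone therefore does not show that either effect depended on the medium.

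**Figure D2:**
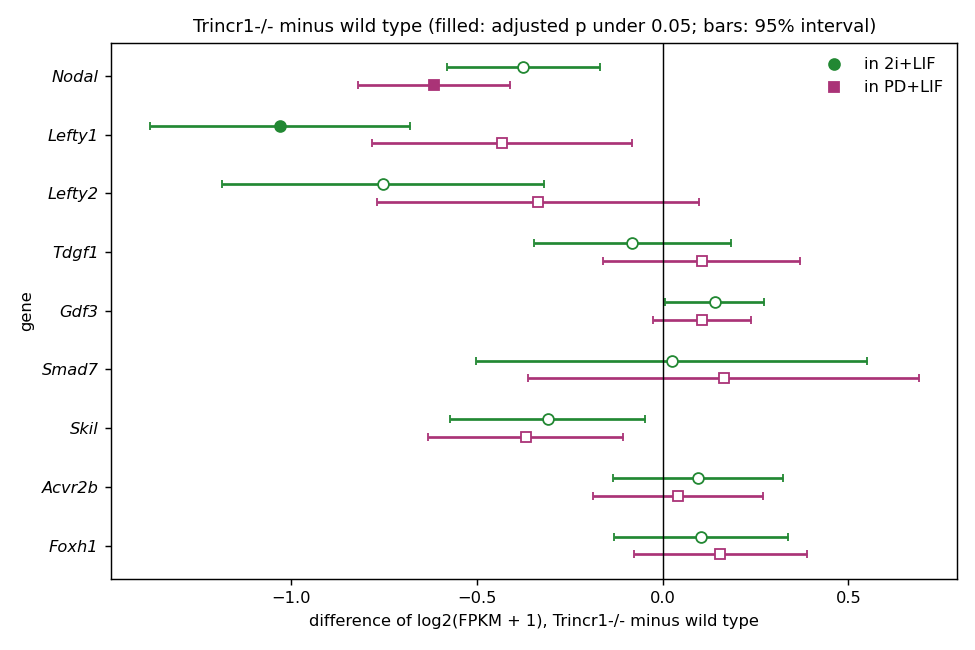
Difference of log2(FPKM + 1) between Trincr1-/- and wild-type ESCs (x axis) for each of the 9 genes (y axis), in 2i + LIF (circles) and PD + LIF (squares). Bars are 95% intervals not adjusted for the number of genes, and filled symbols passed at an adjusted p under 0.05. Lefty1 in 2i + LIF (-1.03) and Nodal in PD + LIF (-0.61) are filled, while Tdgf1, Acvr2b, Foxh1 and Smad7 lie near 0.

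For the medium, all 9 genes passed in wild-type ESCs, 6 lower (Nodal, Lefty2, Tdgf1, Gdf3, Smad7 and Foxh1) and 3 higher (Lefty1, Skil and Acvr2b) in PD + LIF. In Trincr1-/- ESCs 7 of 9 passed, 4 lower (Nodal, Tdgf1, Gdf3 and Foxh1) and the same 3 higher. Over all tested genes, 52.2% passed in wild-type ESCs, 21.3% lower and 30.9% higher. In Trincr1-/- ESCs 50.0% of all tested genes passed, 20.3% lower and 29.6% higher. Because the 9 genes were chosen with earlier results known, these shares do not set an unselected group against all genes. In a fit of only the 12063 genes with a mean above 1 FPKM, as all 9 had, 7181 passed in wild-type and 6752 in Trincr1-/- ESCs. The split of all genes moved with the scaling. In wild-type ESCs it was 4765 higher and 3283 lower as deposited and 3921 higher and 4193 lower with TMM scaling (a trimmed mean of log ratios), and in Trincr1-/- ESCs 4572 and 3136 against 3840 and 4037. The directions of the 9 genes were the same under both scalings. The 2 samples of each medium did not overlap for any of the 9 genes in either genotype, which held for 76.4% of all tested genes in wild-type and 74.5% in Trincr1-/- ESCs. The genotype and medium comparisons share samples, so their values stand side by side and were not related to each other. The labels give no culture time for the 2i + LIF samples, so the medium and the time since plating cannot be told apart.

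**Figure D3:**
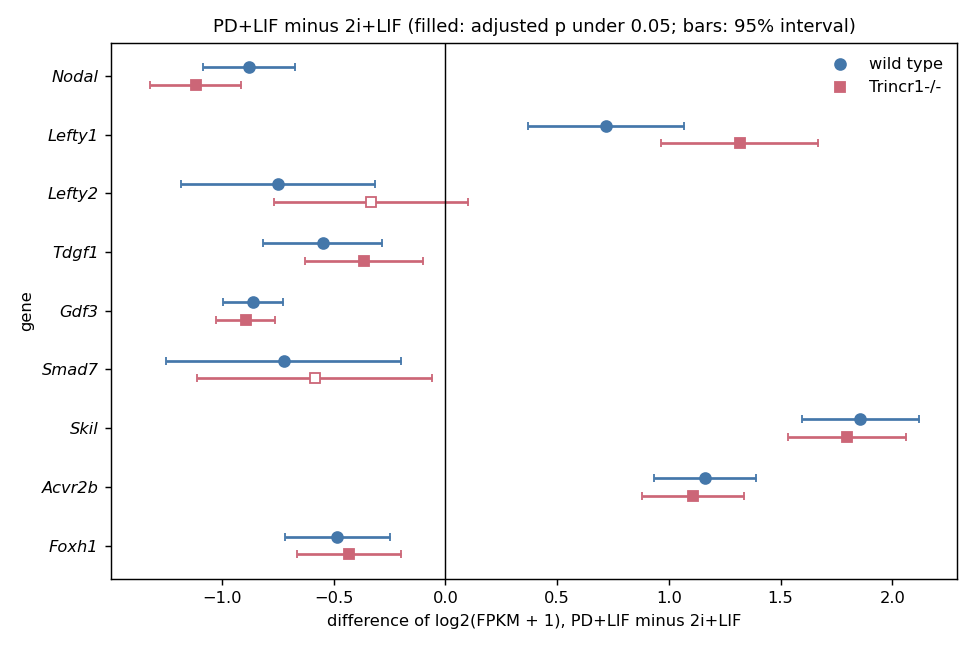
Difference of log2(FPKM + 1) between PD + LIF and 2i + LIF (x axis) for each of the 9 genes (y axis), in wild-type (circles) and Trincr1-/- ESCs (squares). Bars are 95% intervals not adjusted for the number of genes, and filled symbols passed at an adjusted p under 0.05. Skil (1.86 and 1.80), Acvr2b (1.16 and 1.11) and Lefty1 (0.72 and 1.32) lie to the right of 0 and the other 6 genes to the left.

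Lefty1 and Lefty2 changed places with the medium. The ratio of Lefty1 to Lefty2 was 0.786 and 0.734 in wild-type and 0.594 and 0.640 in Trincr1-/- ESCs in 2i + LIF, and 2.01 and 2.31 in wild-type and 2.24 and 1.83 in Trincr1-/- ESCs in PD + LIF. All 4 samples in 2i + LIF thus had more Lefty2 than Lefty1 per kilobase, and all 4 in PD + LIF the reverse. The log2 ratio was higher in PD + LIF by 1.61 on average, and a two-sided exact permutation test of 4 against 4 samples gave p = 0.0286, the smallest it allows. With labels exchanged only within a genotype the smallest p allowed is 0.0556, and this was the value. The ratio was examined after its values, and their separation by medium, were seen. Both p-values were thus fixed in advance and lend the difference no support. The summed level of both genes was 82.2 ± 10.4 FPKM (SD, n = 2) in wild-type and 44.3 ± 6.12 in Trincr1-/- ESCs in 2i + LIF, and 86.8 ± 14.8 in wild-type and 65.0 ± 6.09 in Trincr1-/- ESCs in PD + LIF. The part of reads from the 140-base stretch and the other shared stretches in the ratio was not tested.

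**Figure D4:**
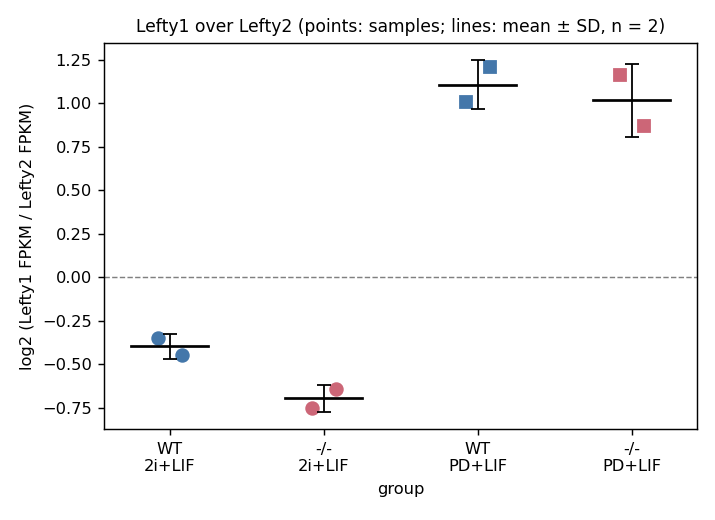
Log2 of the ratio of Lefty1 to Lefty2 FPKM (y axis) in each sample of the 4 groups (x axis), with lines for the mean ± SD (n = 2). The 4 samples in 2i + LIF lie below 0, at group means of -0.40 and -0.70, and the 4 samples in PD + LIF above it, at 1.11 and 1.02.

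The other genes of the pathway were described from lists of receptors, ligands, processing enzymes, inhibitors, Smads and target genes. These lists held 48 genes in all, of which 41 were tested, and were also chosen with earlier results known. Acvr1c, Inhba, Tgfb2, Tgfb3, Cer1, Mixl1 and Lhx1 were under the filter, with Acvr1c, Inhba and Cer1 listed at 0 in every sample. For the genotype in 2i + LIF, 0 of the 41 passed in limma, against 1.21% of all tested genes, and 9 (22.0%) had an unadjusted p under 0.05, against 14.6%. In PD + LIF 5 of 41 (12.2%) passed, close to the 12.1% of all tested genes. Pcsk6, a protease that cleaves the Nodal precursor, fell from 9.51 and 9.07 FPKM in wild-type to 6.85 and 6.09 in Trincr1-/- ESCs (log2 difference -0.46 ± 0.08, adjusted p = 0.0139). Tgif1, a repressor that binds Smad2, fell from 79.2 and 80.4 to 69.5 and 68.6 FPKM (-0.21 ± 0.05, adjusted p = 0.0381). Fst, which encodes the activin-binding protein follistatin, rose from 1.84 and 1.76 to 3.77 and 3.34 FPKM (0.70 ± 0.14, adjusted p = 0.0222). Among the target genes, the endoderm factor Foxa2 rose from 0.504 and 0.367 to 1.86 and 1.5 FPKM (0.90 ± 0.17, adjusted p = 0.0182). The calls went in both directions, with Pcsk6 and Tgif1 lower and Fst and Foxa2 higher, and each of these 4 calls was lost in 4 to 10 of its alternative analyses. In none of the 41 did the genotype difference itself pass as different between media, and 7 (17.1%) had an unadjusted p under 0.05, near the 19.0% of all tested genes.

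With the change of medium, 25 of the 41 pathway genes passed in wild-type ESCs (14 higher, 11 lower) and 28 in Trincr1-/- ESCs (16 higher, 12 lower). These are 61.0% and 68.3% of the 41, beside 52.2% and 50.0% of all tested genes. The median log2 difference of the 41 was 0.07 in wild-type and 0.10 in Trincr1-/- ESCs, against 0.08 and 0.07 for all tested genes. Among the target genes, T (brachyury), Eomes and Ctgf fell and Fgf8 rose in both genotypes, Gsc fell and Foxa2 rose in Trincr1-/- ESCs, and neither of the last pair passed in wild-type ESCs. T, a mesoderm factor, was at 2.03 and 1.61 FPKM in wild-type ESCs in 2i + LIF and at 0.0389 and 0.186 in PD + LIF, and at 2.49 and 1.98 against 0.495 and 0.326 in Trincr1-/- ESCs. Of the 5 Smads and nuclear partners, Smad3 rose 1.74-fold in wild-type and 1.84-fold in Trincr1-/- ESCs, while Smad2 and Zfyve9 passed in neither. Trim33 rose in both, but its call in Trincr1-/- ESCs was lost in 6 of 16 alternative analyses, TMM scaling among them. The extracellular inhibitor Fstl3, a relative of follistatin, rose from 0.0475 and 0.124 to 2.82 and 2.97 FPKM in wild-type and from 0.424 and 0.112 to 4.03 and 4.31 in Trincr1-/- ESCs. Fst fell by 52.9% in wild-type and fell by 30.0% in Trincr1-/- ESCs, the latter call lost in 10 of 16 alternative analyses. Among the intracellular inhibitors, Ski, Smurf2 and Tgif2 rose in both genotypes and Pmepa1, Ldlrad4 and Rnf111 fell. Of the 4 tested receptors only Acvr1b passed, lower in Trincr1-/- ESCs (log2 difference -0.26 ± 0.09, adjusted p = 0.0499), a call lost in 9 of 16 alternative analyses, and none of the 4 rose as Acvr2b did.

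The genes whose levels followed Nodal most closely over the 8 samples, by Pearson's r of log2(FPKM + 1) among 12063 genes with a mean of at least 1 FPKM, were Parp9, Fig4 and Sept1 (each r = 0.996). For Lefty1 they were Akna (r = 0.987), Sema4d (0.985) and Pnpla2 (0.983), and for Lefty2 they were Zfp72 (0.986), Gm15466 (0.967) and Nsf (0.964). None of the other 8 genes of the pathway set stood among the closest to Nodal, where Gdf3 came nearest with r = 0.823. Over the 8 samples, Lefty1, Skil and Acvr2b had negative values with Nodal (r = -0.468, -0.787 and -0.910). Lefty2, Tdgf1, Foxh1 and Smad7 had positive ones (0.790, 0.775, 0.711 and 0.651). Between genotypes within each medium, however, Lefty1 and Skil were lower in Trincr1-/- ESCs without overlap, as Nodal was. Lefty1 and Lefty2 had r = -0.013 with each other. These values describe 8 samples that share 4 groups and carry no test.

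Upstream sequence was given for 3 of the 9 genes, Nodal, Tdgf1 and Acvr2b, and is shown because Nodal and Tdgf1 fell and Acvr2b rose in PD + LIF. Each line holds the 250 bases before the start site in RefSeq on GRCm38.p6, at chr10:61417722-61417971 on the plus strand for Nodal, chr9:110946159-110946408 on the minus strand for Tdgf1 and chr9:119401928-119402177 on the plus strand for Acvr2b. Capitals mark the Smad box CAGAC on either strand.
Nodal: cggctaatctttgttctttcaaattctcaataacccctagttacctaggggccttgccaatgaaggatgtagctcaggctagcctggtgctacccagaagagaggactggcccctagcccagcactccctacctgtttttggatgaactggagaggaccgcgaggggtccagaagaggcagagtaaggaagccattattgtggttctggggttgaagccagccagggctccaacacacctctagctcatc
Tdgf1: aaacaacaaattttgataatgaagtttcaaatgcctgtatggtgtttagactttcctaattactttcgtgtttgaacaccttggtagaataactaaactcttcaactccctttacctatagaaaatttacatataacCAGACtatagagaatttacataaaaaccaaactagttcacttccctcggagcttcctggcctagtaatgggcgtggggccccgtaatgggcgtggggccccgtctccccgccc
Acvr2b: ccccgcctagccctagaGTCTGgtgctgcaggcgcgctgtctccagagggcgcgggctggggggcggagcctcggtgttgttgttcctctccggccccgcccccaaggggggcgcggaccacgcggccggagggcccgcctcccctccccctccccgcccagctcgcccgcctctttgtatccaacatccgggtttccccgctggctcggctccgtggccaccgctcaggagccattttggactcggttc
The 3 windows differed in composition, with 53.2% G and C and 3 CpG in Nodal, 42.0% and 7 in Tdgf1 and 72.8% and 24 in Acvr2b. CAGAC was found once in Tdgf1, 113 bases before the start, and once in Acvr2b, 233 bases before it. It was present in 42.2% of all 32817 windows of this length. The Foxh1 motif AATNCACA (3.18% of windows) and the TCF/LEF motif CTTTGAT (3.21%), searched on both strands, had no match in these 3 windows, and a match or its absence is a description of these letters only.

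In the pulldown with TRIM71, 1 of the 9 transcripts, Acvr2b, was above a 3-fold ratio of the scaled IP to the input with an input above 2 FPKM, a rule met by 5.10% of the 9651 transcripts with such an input. These are single values, so the ratios carry no error and no test, and the labels describe poly-T selection for the input and none for the IP. The labels also list an IP from the ESCs labelled empty, but no values of it stood beside these. The ratios thus compare the IP with the input alone, and background of the pulldown was not subtracted. Acvr2b had 4.5 FPKM in the input and 6.5 in the IP, which is 14.6 after the authors' scaling and gives a ratio of 3.24. The ratio was 1.44 without the scaling, 4.79 with both libraries at the same mean and 2.84 with 1 FPKM added to both scaled values, so it stood above or below 3 depending on the scaling. Nodal had 16.4 FPKM in the input and 11.3 in the scaled IP (ratio 0.689), and Smad7 17.8 and 10.9 (ratio 0.612). Foxh1 (0.333), Skil (0.324), Gdf3 (0.235) and Tdgf1 (0.215) had lower ratios, all above the median of 0.0571 over transcripts with an input above 2 FPKM. A ratio of 0 was listed for 45.9% of those transcripts, and the ratios from Tdgf1 to Foxh1 stood at percentiles 60.1 to 66.3 among them. The IP was listed at 0 for Lefty1 and Lefty2, whose inputs were 0.7 and 1.9 FPKM. The IP was also at 0 for 90.5% of the 1200 transcripts with an input of 0.5 to 1 FPKM, the range of Lefty1, and for 83.5% of the 2058 with an input of 1 to 2.5 FPKM, the range of Lefty2, so binding was not detectable for either gene at this depth.

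**Figure D5:**
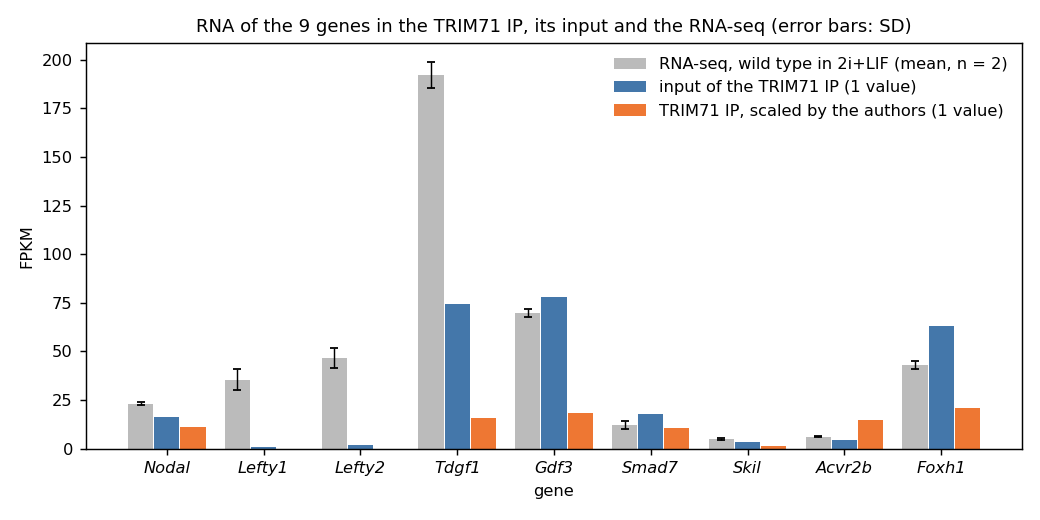
FPKM (y axis, from 0) of each of the 9 genes (x axis) in the RNA-seq of wild-type ESCs in 2i + LIF (grey, mean with SD, n = 2), in the input of the TRIM71 IP (blue, 1 value) and in the scaled IP (orange, 1 value). The scaled IP exceeds the input for Acvr2b alone (14.6 against 4.5 FPKM), and the input bars of Lefty1 (0.7) and Lefty2 (1.9) are far below their RNA-seq bars (35.6 and 46.7).

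Both Lefty genes were far lower in the input of the pulldown, than in the RNA-seq of wild-type ESCs in the same medium. The cells differed in more than the assay, since those of the pulldown experiment were UV-crosslinked and the experiment used ESCs overexpressing the tagged TRIM71 beside ESCs labelled empty. The ratio of input FPKM to the mean FPKM of wild-type ESCs in 2i + LIF was 0.0197 for Lefty1 and 0.0407 for Lefty2, and 0.387 to 1.47 for the other 7 genes. The median of this ratio was 0.769 over 6029 genes with at least 10 FPKM in wild-type ESCs in 2i + LIF, of which 11 (0.182%) were at or below Lefty1 and 22 (0.365%) at or below Lefty2. Nodal, the ligand that they antagonise, had a ratio of 0.712, near that median. The tables were normalized separately, the input was listed as a single value, and the labels do not say which of these ESCs it came from. No test of this difference was therefore made, and its cause was not tested.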

How the data were processed

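Poly(A) RNA of 8 ESC samples was sequenced. The authors aligned the reads with STAR 2.5.0 and deposited FPKM values from Cufflinks 2.2.1 for each gene and sample. The labels name mm9, while gene coordinates in the deposited table are those of GRCm38. For the TRIM71 pulldown they deposited 1 FPKM value for the input and 1 for the IP, with a second pair as a scaled signal, in which the IP is multiplied by 2.25. The labels list 2 replicates of each, and how they enter these values is not given in the sources used here.

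Genes with a mean above 0.2 FPKM (15430) were compared on log2(FPKM + 1) in limma 3.58.1 (R 4.3.3) as 1 fit of all 4 groups of 2, with a variance trend and 4 residual degrees of freedom, for the genotype in each medium, the medium in each genotype and the difference of the genotype effect between media. P-values were adjusted by Benjamini-Hochberg over all tested genes with a threshold of 0.05. The fit was also run on simulated data, as a check of the code and not of the calls reported here. Ratios of the pulldown were computed from the deposited scaled signal. Lefty sequences were compared, and copies of the mRNAs searched, in NCBIM37 with BLAST 2.17.0. Further steps used numpy 2.4.6, pandas 2.3.3 and matplotlib 3.10.9 under Python 3.11.15.

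All 9 genes are reported whether or not they passed, beside pathway genes that passed the threshold. For Nodal, Lefty1 and Lefty2, the 3 genes with the highest Pearson's r are also named. The genes and lists were chosen with earlier results of these data known. Alternatives covered the pseudocount, the filter, scaling, the variance model, the samples fitted, a replicate block, each sample left out and the scaling of the IP. A few results that belong to the pathway lists, counted in their totals, are not reported here.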

Additional observations from a re-analysis of the deposited data

How the results depend on the processing

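Lefty1 in 2i + LIF and Nodal in PD + LIF were the only calls between genotypes among the 9 genes, so their counts moved with single choices. The count in 2i + LIF went from 1 to 0 with no filter on low FPKM, with no variance trend, with only the groups compared, with the replicate block, and in every fit without a sample (0 to 0). In PD + LIF it went from 1 to 0 with only the groups compared, and was 0 to 1 without a sample. The counts for the medium stayed at 7 to 9 in wild-type and 6 to 8 in Trincr1-/- ESCs, and that for the difference between media at 0. With only the groups compared, 0 of all genes passed for the genotype in 2i + LIF and 316 in PD + LIF, against 186 and 1861. Without a sample these counts were 40 to 113 and 335 to 1519, with the replicate block 111 and 1302, with no filter 122 and 1519, and for the difference between media 3 to 34, 39 and 138 against 279, or 88 with no variance trend. The replicate numbers did not pair the samples (correlations of the deviations of -0.054 to 0.0063), and with the replicate block Lefty1 had an adjusted p of 0.0591 and Nodal 0.0186. Acvr2b alone was over 3-fold in the IP, and the count was 0 for the unscaled values and 0 with 1 FPKM added.

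Of 711 alternative values of the log2 differences of the 9 genes, 660 kept their direction and their side of the threshold, 30 lost it, 3 gained it and 18 turned their sign, none of them in a difference that had passed. The sign turned only on leaving out a sample. For the genotype in 2i + LIF the values then ranged from -0.16 to 0.0019 for Tdgf1 and from -0.14 to 0.19 for Smad7. For the genotype in PD + LIF they ranged from -0.051 to 0.26 for Tdgf1, from -0.10 to 0.43 for Smad7 and from -0.073 to 0.16 for Acvr2b. For the difference between media they ranged from -0.098 to 0.030 for Gdf3, from -0.13 to 0.41 for Smad7, from -0.18 to 0.062 for Skil, from -0.17 to 0.063 for Acvr2b and from -0.093 to 0.20 for Foxh1. The other pathway genes kept their direction in all 916 values and lost the threshold in 102. Where a fit left a group with 1 sample, that sample was taken to vary like the other groups. The causes were not tested.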

Other observations

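Other genes of the Nodal and activin pathway were present in the TRIM71 pulldown, as single values with no error and no test. Of 38 that were listed, 25 had an input above 2 FPKM, none of them with a ratio of the scaled IP to the input above 3, against 5.10% of all transcripts with such an input. Tgfbr1, a type I receptor of TGF-beta, had 2.1 FPKM in the input and 6.3 in the scaled IP, a ratio of 3.00, which was 4.42 with both libraries at the same mean, so the count of 0 became 1 under that scaling. The protease Furin was the only other gene of the 25 above 1, with a ratio of 1.22. Smad4, the common partner of the activated Smads, had 14.1 FPKM in the input and 13.5 in the scaled IP (ratio 0.957). The unscaled IP was listed at 0 for 13 of the 25, among them Tgif1, Ppm1a and Smad2 with inputs of 36.0, 31.2 and 17.6 FPKM. Of all transcripts with an input above 2 FPKM, 45.9% had a ratio of the scaled IP to the input of 0, so such a value was common.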
